A study of Mus musculus with 8 samples.

Results

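The genes of zinc and iron handling were read out in organoids grown from the glandular stomach (hindstomach) epithelium of mouse embryos. The set holds 45 genes of the 53170 named genes in the deposited count table, picked by symbol at a time when earlier results of these data were known: the Slc30a and Slc39a zinc transporters, the metallothioneins Mt1 to Mt4, the metal transporters Slc11a1 and Slc11a2, and 15 named genes of iron uptake, storage, export and sensing. Counts were high enough to test 31 of the 45, and 14 were at or near 0. The study's bulk libraries compare 2 groups after 5 days in growth medium. The 4 YAP5SA libraries carry the genotype Shh-Cre;YAP5SA, in which Cre is driven by Shh, a gene of foregut epithelium, and YAP5SA is a form of the coactivator YAP that the Hippo kinases cannot inactivate. The 4 control libraries carry Shh-Cre alone, so Cre is shared by both groups. All were started from embryos of embryonic day 18.5. The labels do not tell whether replicate libraries were made from different embryos or organoid cultures, and p-values here cover the variation among the 4 libraries of each group, part or all of which may be technical.

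Cells hold zinc and iron within narrow limits because both are needed as cofactors and both do harm in excess. Proteins of the Slc30a (ZnT) family move zinc out of the cytosol, to the outside or into vesicles and the Golgi. Proteins of the Slc39a (ZIP) family move it in, and metallothioneins are small cysteine-rich proteins that bind what is free. Most cells take up iron as transferrin through the transferrin receptor, and absorptive epithelium takes it from the lumen after a reductase makes it ferrous. Iron is stored in ferritin, a shell of heavy and light chains, and leaves the cell through a single known exporter, ferroportin. The iron regulatory proteins bind hairpins called iron-responsive elements in the untranslated ends of several of these messages. At the 5′ end they block translation, and at the 3′ end they keep the message from decay.

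The libraries held between 13672268 and 19710648 counts. Levels are in CPM, the unit of read counts scaled to a common library size. Male and female libraries coincided with genotype: Xist, the RNA of the inactive X chromosome, ranged from 0.412 to 2.76 CPM in YAP5SA and from 676 to 1049 CPM in controls, and the Y-linked Eif2s3y from 93.3 to 111 CPM in YAP5SA and from 0 to 0.108 CPM in controls. Genotype and sex therefore cannot be told apart in any comparison below. All 31 tested genes of the set lie on autosomes, which does not separate genotype from sex. Mouse Yap1 ranged from 149.6 to 157 CPM in YAP5SA and from 152 to 169 CPM in controls (adjusted p = 0.339, edgeR). Whether transgene reads are counted on it is not given in the sources used here, so it does not check the labels. Epithelial markers (Epcam, Cdh1 and keratins) were abundant in all 8 libraries. Summed over 10 markers of gastric epithelium, the level was 72.8 to 78.1 CPM in YAP5SA and 2218 to 2395 CPM in controls. By the test 8 of the 10 were lower in YAP5SA and Sox2 was higher, where 25.5% of all tested genes were lower and 23.6% higher. Gkn1 and Gkn2 were nearly absent in YAP5SA. With Muc6 they had at most 8 counts in any YAP5SA library, and these 3 passed the filter on low counts through the controls. Endothelial markers (5 of 5 detected) summed to 0.828 to 2.06 CPM in YAP5SA and 7.14 to 14.4 CPM in controls. Most of the control sum was Tek. In YAP5SA Vwf had the highest mean of the list, and it did not differ between the groups by the test (adjusted p = 0.796, edgeR). Mesenchymal markers (7 of 7 detected) summed to 0.607 to 1.71 CPM in YAP5SA and 1.65 to 4.23 CPM in controls. Pancreatic ones (2 of 5 detected) summed to 0 in YAP5SA and at most 0.253 CPM in controls. The part of these differences in the results below was not tested. In bulk RNA, fewer cells of a type and less RNA per cell cannot be told apart.

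In YAP5SA organoids 18 of the 31 tested genes fell and 6 rose (edgeR quasi-likelihood test, adjusted p under 0.05), and the other 7 were not called. That is 77.4%, against 49.1% of all 14058 tested genes. The share rises with abundance: of the genes with a mean of at least 10 CPM 53.6% were called, and 24 of 30 members of the set at that level. Lower calls made up 25.5% and higher calls 23.6% of all tested genes. The median log2 fold change of the 31 was −0.22, against 0.00 over all tested genes. Changes of 2-fold or more were seen in 8 of the set, 7 of them lower and Trf higher, where 13.8% of all tested genes changed that much, 8.59% lower and 5.26% higher. For 20 of the 31 the range of the YAP5SA libraries lay wholly outside that of the controls, as it did for 45.7% of all tested genes. Together the 45 genes took 0.462% to 0.492% of the counts in YAP5SA libraries and 0.648% to 0.707% in controls.

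**Figure D1:**
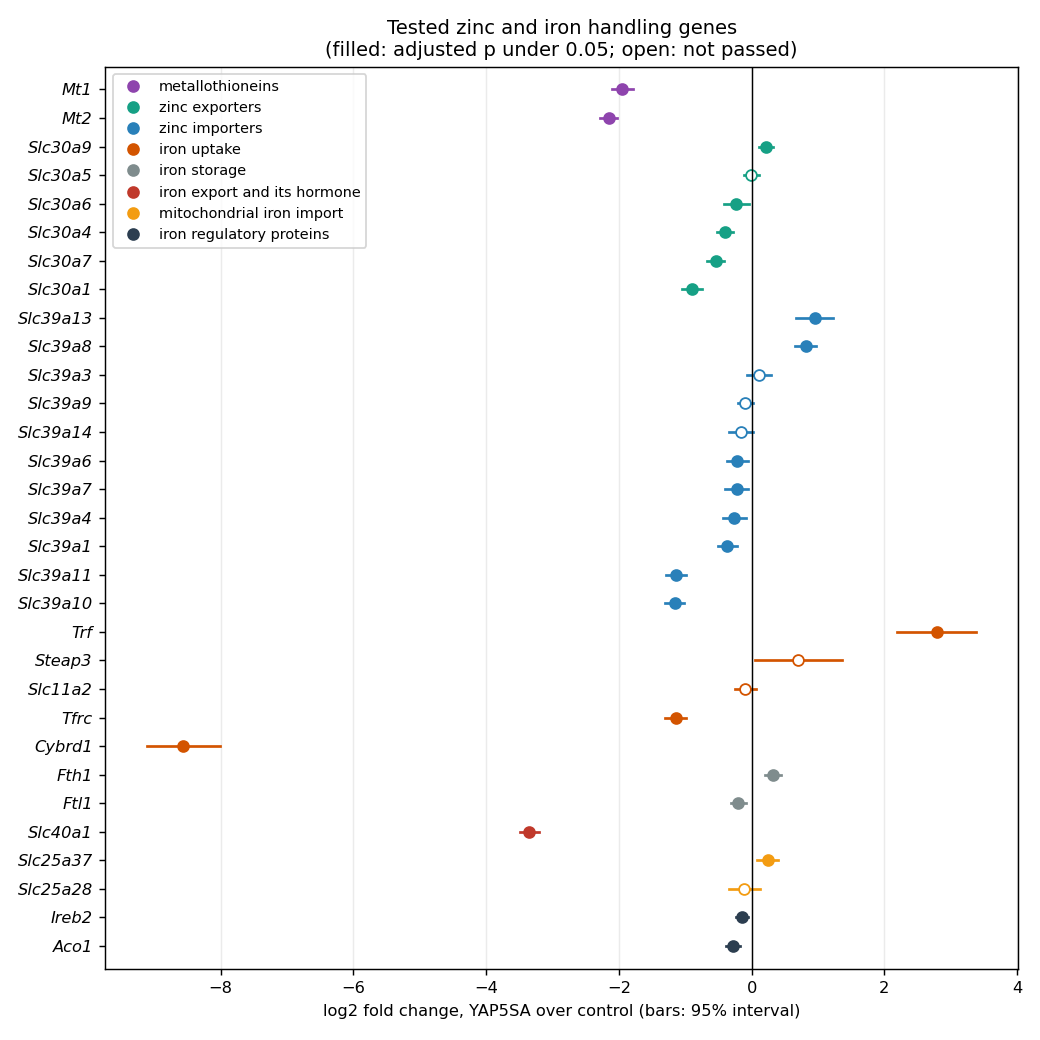
Log2 fold change, YAP5SA over control, of the 31 tested genes with 95% intervals, ordered by role (color); filled points passed at an adjusted p under 0.05 and open points did not. Cybrd1 and Slc40a1 lie farthest to the left, at −8.56 and −3.35, and Trf farthest to the right, at 2.79.

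The iron reductase and the iron exporter showed the lowest log2 fold changes of the set. Cybrd1 encodes duodenal cytochrome b, which reduces dietary iron at the surface of absorptive cells. It had 1.55, 1.66, 0.966 and 0.236 CPM in the YAP5SA libraries and 446, 341, 441 and 455 CPM in the controls. All control libraries were far above all YAP5SA libraries, with a fitted fall of 378-fold (log2 fold change −8.56 ± 0.24 SE, adjusted p = 2.57e-09, edgeR). YAP5SA counts of Cybrd1 were 24, 30, 15 and 4, so it passed the filter on low counts through the control libraries. Of 6 markers of intestinal epithelium 4 were detected and Cdx1 and Cdx2 were at 0. Their sum was 9.42 to 16.2 CPM in YAP5SA and 91.0 to 109 CPM in controls, nearly all of it Vil1, which alone had the counts to be tested. Cdh17, too low to test, had 0 counts in YAP5SA and 34 in controls. Fabp2 went the other way, with 0.388 to 0.773 CPM in YAP5SA and 0.102 to 0.271 CPM in controls, 38 counts in YAP5SA and 11 in controls. Their part in the result was not tested.

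Slc40a1 encodes ferroportin, the iron exporter. Its levels were 13.5, 13.9, 11.5 and 13.0 CPM in the YAP5SA libraries and 133, 137, 132 and 129 CPM in the controls. Within each group the libraries were close to each other, and the fall was 10.2-fold (log2 fold change −3.35 ± 0.07 SE, adjusted p = 5.89e-17, edgeR). Ferroportin is also a gene of macrophages that recycle iron. Of the macrophage and immune markers 9 of 9 were detected, with a summed level of 18.7 to 22.2 CPM in YAP5SA and 84.4 to 103 CPM in controls, most of it Cd14 and Cd68. Of the 3 tested, Cd14 and Cd68 were lower, and Csf1r, the receptor of a macrophage growth factor, was higher, at 1.49 ± 0.597 CPM in YAP5SA and 0.191 ± 0.0738 CPM in controls (SD, n = 4 each), having passed the filter on low counts through YAP5SA. Ptprc, the common leukocyte antigen, was at most 0.530 CPM in YAP5SA and 0.704 CPM in controls, and Adgre1, a macrophage surface marker, at most 0.0589 CPM in YAP5SA and 0.102 CPM in controls. The part of these cells in the result was not tested. Heph, the ferroxidase that works with ferroportin in the gut, had 0 counts in all YAP5SA libraries and 6 counts over the 4 controls. Hamp, which encodes the liver hormone hepcidin that degrades ferroportin, had 0 counts in every library.

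Transferrin and its receptor moved in opposite directions. Tfrc, the receptor that takes up iron-loaded transferrin, had 319.6, 406, 387 and 388 CPM in the YAP5SA libraries and 924, 767, 862 and 769 CPM in the controls. All YAP5SA libraries were below all controls, by 2.21-fold (log2 fold change −1.15 ± 0.08 SE, adjusted p = 2.83e-09, edgeR). Trf, which encodes transferrin itself, the iron carrier of plasma, made mostly by liver, had 85.7, 129.5, 143 and 96.4 CPM in the YAP5SA libraries and 23.3, 12.1, 16.6 and 13.9 CPM in the controls. Trf rose 6.90-fold (log2 fold change 2.79 ± 0.25 SE, adjusted p = 5.47e-05, edgeR), with YAP5SA 3 the highest and YAP5SA 1 the lowest of its group. The hepatocyte markers Alb, Ahsg, Serpina1a, Ttr, Apoa2 and Fgb summed to 0.0644 to 0.471 CPM in YAP5SA and 0.650 to 1.07 CPM in controls, 4 of the 6 were detected, and Serpina1a and Fgb were at 0. In GENCODE M21 an unnamed gene model shares 63.5% of the exon bases of Trf on the same strand; that model was not used here.

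Of the remaining iron uptake genes none passed the test. Slc11a2 encodes DMT1, which carries ferrous iron across the apical membrane and out of endosomes. It had 39.2, 35.1, 40.2 and 41.0 CPM in the YAP5SA libraries and 43.1, 45.3, 38.2 and 39.2 CPM in the controls. The groups overlapped, with a log2 fold change of −0.09 ± 0.08 SE and a 95% interval from −0.25 to 0.06 (adjusted p = 0.322, edgeR). Steap3, an endosomal iron reductase, was low, with 1.15 ± 0.133 CPM in YAP5SA and 0.710 ± 0.136 CPM in controls (SD, n = 4 each). Its groups did not overlap, but the test was not passed (log2 fold change 0.70 ± 0.31 SE, adjusted p = 0.0700, edgeR). Steap4 had 6 counts over the YAP5SA libraries and 14 over the controls. Tfr2, a liver sensor of iron-loaded transferrin, and Slc11a1, the phagosomal metal transporter of macrophages, had 3 and 4 counts over the YAP5SA libraries and 1 and 3 counts over the controls.

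**Figure D2:**
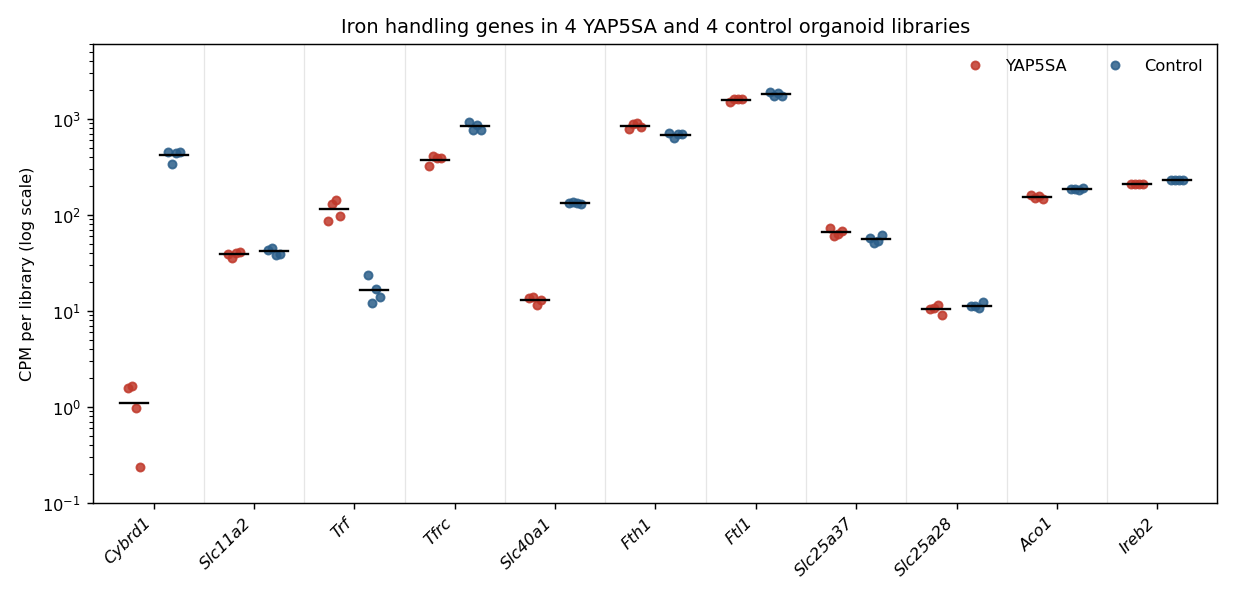
CPM per library (log axis) of 11 iron handling genes; points are the 4 YAP5SA libraries (left of each pair) and the 4 controls, bars are means. Cybrd1 and Slc40a1 are low in every YAP5SA library, Tfrc is lower and Trf higher without overlap, and the levels of Slc11a2 and Slc25a28 overlap.

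Both ferritin chains changed little and in opposite directions. Fth1, the heavy chain, which oxidizes iron as it enters the shell, had 772, 875, 908 and 823 CPM in the YAP5SA libraries and 707, 631, 690.0 and 688 CPM in the controls. It rose 1.24-fold (log2 fold change 0.31 ± 0.06 SE, adjusted p = 0.00017, edgeR). Ftl1, the light chain, which promotes mineral formation, had 1500.0, 1599, 1604 and 1589 CPM in the YAP5SA libraries and 1910.2, 1744, 1849 and 1725 CPM in the controls, a fall of 1.15-fold (log2 fold change −0.20 ± 0.05 SE, adjusted p = 0.00331, edgeR). Neither gene's groups overlapped. Summed, ferritin was at 2417 ± 105 CPM in YAP5SA and 2486 ± 112 CPM in controls (SD, n = 4 each), ranges that overlap.

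Because scaling moves both chains alike, the ratio of Fth1 to Ftl1 counts inside a library is free of it. It was 0.515, 0.547, 0.566 and 0.518 in the YAP5SA libraries and 0.370, 0.362, 0.373 and 0.399 in the controls. The YAP5SA libraries were all above the controls. Processed copies of ferritin genes can take reads from their parents. Ftl1-ps1 held 1499 counts in YAP5SA and 1858 in controls, between 0.0130 and 0.0152 of the Ftl1 counts in YAP5SA libraries and between 0.0138 and 0.0173 in controls, and the named copies of Fth1 held 5 or fewer counts in either group. A gene model on the other strand shares 34.6% of the exon bases of Ftl1, with 68 counts in YAP5SA and 48 in controls.

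**Figure D3:**
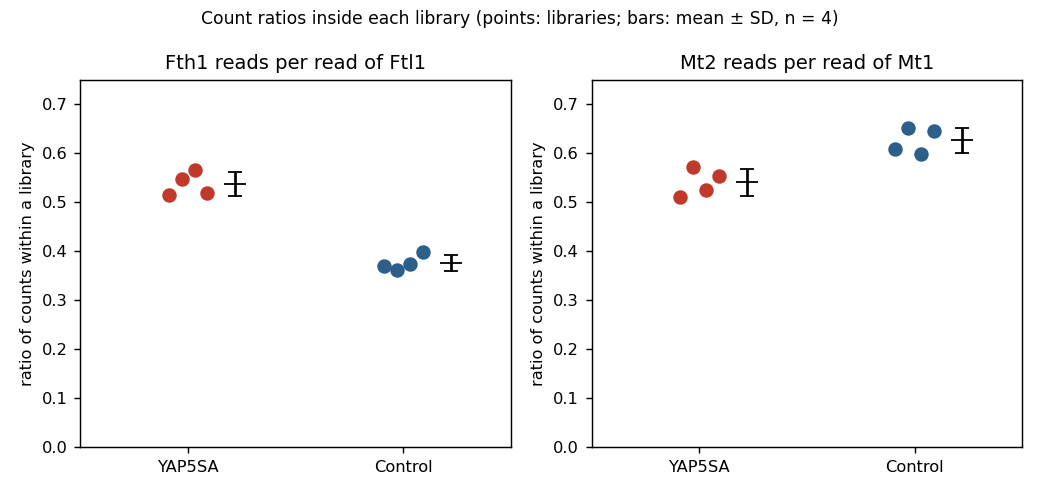
Fth1 counts per Ftl1 count (left) and Mt2 counts per Mt1 count (right) in each library; bars are mean ± SD of 4 libraries. The ferritin ratio is higher in every YAP5SA library (0.515 to 0.566) than in every control (0.362 to 0.399), and the metallothionein ratio is lower in every YAP5SA library (0.510 to 0.571) than in every control (0.599 to 0.652).

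The hairpins through which iron sets several of these messages are shown because they separate the members by where the element lies. Protein-coding transcripts of GENCODE M21 (GRCm38) were searched for a C, 5 bases, the loop CAGTGN and 5 bases that pair with the first 5, with G-T pairs allowed. Such a hairpin was found in 4 of the 45 genes, against 294 of 21877 protein-coding genes (1.34%) and 204 of 11923 tested ones (1.71%). The set was picked by symbol and names messages already known to carry such elements, so these shares do not test it. The pattern is strict and misses elements with another loop, an extra bulge or a mismatch in the stem. Members without a match, Slc11a2 among them, therefore cannot be said to lack an element. In Fth1, Ftl1 and Slc40a1 it lies in the 5′ untranslated region, and in Tfrc the 4 hairpins found all lie in the 3′ untranslated region. The loop is in capitals, in the DNA alphabet:
Fth1: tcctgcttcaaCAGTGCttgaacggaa
Ftl1: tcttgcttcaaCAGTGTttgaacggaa
Slc40a1: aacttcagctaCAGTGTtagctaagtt
Tfrc, hairpin 1: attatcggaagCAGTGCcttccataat
Tfrc, hairpin 2: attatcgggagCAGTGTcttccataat
Tfrc, hairpin 3: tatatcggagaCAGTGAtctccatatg
Tfrc, hairpin 4: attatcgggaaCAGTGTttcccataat

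The messages with these hairpins did not share a direction or a size of change. Slc40a1 fell 10.2-fold, Ftl1 fell 1.15-fold and Fth1 rose 1.24-fold with an element at the 5′ end, and Tfrc fell 2.21-fold with elements at the 3′ end. The genes of both proteins that bind these hairpins were slightly lower in YAP5SA. Aco1 (IRP1, an aconitase when it carries an iron-sulfur cluster) had 160.0, 149, 158 and 145 CPM in the YAP5SA libraries and 187, 185, 181 and 191 CPM in the controls, and Ireb2 (IRP2, which is degraded when iron is plentiful) had 208, 208, 208 and 207 CPM in the YAP5SA libraries and 231, 229, 229 and 231 CPM in the controls. They fell 1.22-fold and 1.11-fold (log2 fold changes −0.28 ± 0.05 SE and −0.15 ± 0.04 SE, adjusted p = 0.000132 and 0.00981, edgeR). Neither gene's groups overlapped, and the call of Ireb2 was lost without a filter on low counts (adjusted p = 0.0832, edgeR).

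The mitochondrial iron importers are the mitoferrins. Slc25a37 (mitoferrin 1, abundant in red cell precursors) rose 1.18-fold, with 65.5 ± 5.38 CPM in YAP5SA and 55.5 ± 4.73 CPM in controls (SD, n = 4 each; adjusted p = 0.012, edgeR). Its groups overlapped, and the call was lost without YAP5SA 1 (adjusted p = 0.0549, edgeR). Slc25a28 (mitoferrin 2) had 10.4 ± 1.10 CPM in YAP5SA and 11.3 ± 0.687 CPM in controls (log2 fold change −0.11 ± 0.11 SE, 95% interval −0.35 to 0.12, adjusted p = 0.427, edgeR). The erythroid markers, 8 of 9 detected with Hba-a2 at 0, summed to 2.51 to 3.37 CPM in YAP5SA and 3.90 to 6.38 CPM in controls, most of it Epor. Alas2, the erythroid form of the first heme enzyme, ran the other way at too few counts to test, 22 in YAP5SA and 8 in controls. Their part in the result was not tested.

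Among the tested zinc genes of the set the metallothioneins had the lowest fold changes. Mt1 had 144, 133, 148 and 148 CPM in the YAP5SA libraries and 609.8, 518, 596 and 481 CPM in the controls. Mt2 had 73.3, 75.7, 77.6 and 82.2 CPM in the YAP5SA libraries and 371, 337, 357 and 310.3 CPM in the controls. In both genes all YAP5SA libraries lay below all controls, by 3.86-fold in Mt1 and 4.46-fold in Mt2 (log2 fold changes −1.95 ± 0.07 SE and −2.16 ± 0.06 SE, adjusted p = 4.62e-13 and 4.87e-15, edgeR). The fall was unequal, and the count ratio of Mt2 to Mt1 was 0.510, 0.571, 0.526 and 0.554 in the YAP5SA libraries and 0.608, 0.652, 0.599 and 0.645 in the controls. The other genes of the family were at or near 0. Mt3, the brain metallothionein, had 2 counts over the YAP5SA libraries and 6 over the controls, and Mt4, that of stratified squamous epithelium, had 0 in all libraries. An antisense gene model shares 73.5% of the exon bases of Mt2. It held 45 counts in YAP5SA and 242 in controls, and without strand its reads cannot be told from those of Mt2.

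Metallothionein genes are switched on by zinc through Mtf1, a zinc-sensing factor that binds metal response elements, and so is Slc30a1, the zinc exporter of the cell surface. Slc30a1 had 30.9, 29.5, 29.1 and 28.9 CPM in the YAP5SA libraries and 56.5, 57.2, 48.7 and 58.3 CPM in the controls. It fell 1.86-fold, with no overlap (log2 fold change −0.90 ± 0.07 SE, adjusted p = 8.77e-09, edgeR). Mtf1 itself had 26.7 ± 2.06 CPM in YAP5SA and 31.6 ± 3.10 CPM in controls (SD, n = 4 each). Its log2 fold change was −0.24 ± 0.09 SE (adjusted p = 0.0294, edgeR), the groups overlapped, and the call was lost without YAP5SA 2, YAP5SA 3, Control 2 or Control 4 (adjusted p from 0.0530 to 0.0936, edgeR).

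The sequence before the annotated start of these 3 genes is shown because they are known targets of one factor. The part of that factor in their lower levels was not tested. The core of the metal response element was searched as TGCACNC or TGCGCNC on both strands, in RefSeq windows (GRCm38.p6) of 250 bases before to 50 after each annotated start. Windows were matched by symbol for 36 of the 45 genes. Mt2 had 4 cores, Mt1 3 and Slc30a1 2, counting both sides of the annotated start. Where transcription starts was not read from these data, so the side on which a core lies depends on the annotation. Cores outside the window were not searched. At least 2 cores in a window were found in 13.6% of the 10156 tested genes with a window, and at least 3 in 3.85%. Of the 24 tested members with a window, 5 had at least 2 (Mt1, Mt2, Slc30a1, Slc30a4 and Tfrc, in which the 2 cores overlap). Slc30a4 had 3 cores and fell 1.32-fold. Of the members too low to test, Slc30a10 had 3 cores and Slc30a2 had 2. A match is a run of letters and not a shown site. The 250 bases before each start follow, 5′ to 3′ on the strand of the gene, with the cores that lie wholly in them in capitals, Mt1 at chr8:94178839-94179088, Mt2 at chr8:94172368-94172617 and Slc30a1 at chr1:191906531-191906780, all on the plus strand:
Mt1: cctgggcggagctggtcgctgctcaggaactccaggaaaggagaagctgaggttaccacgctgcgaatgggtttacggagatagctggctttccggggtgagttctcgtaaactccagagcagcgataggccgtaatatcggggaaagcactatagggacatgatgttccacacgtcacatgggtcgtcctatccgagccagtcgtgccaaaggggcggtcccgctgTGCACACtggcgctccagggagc
Mt2: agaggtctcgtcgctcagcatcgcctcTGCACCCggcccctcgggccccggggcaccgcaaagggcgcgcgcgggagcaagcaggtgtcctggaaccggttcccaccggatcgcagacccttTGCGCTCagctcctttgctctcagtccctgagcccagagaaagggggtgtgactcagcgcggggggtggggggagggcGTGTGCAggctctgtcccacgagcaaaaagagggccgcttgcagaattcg
Slc30a1: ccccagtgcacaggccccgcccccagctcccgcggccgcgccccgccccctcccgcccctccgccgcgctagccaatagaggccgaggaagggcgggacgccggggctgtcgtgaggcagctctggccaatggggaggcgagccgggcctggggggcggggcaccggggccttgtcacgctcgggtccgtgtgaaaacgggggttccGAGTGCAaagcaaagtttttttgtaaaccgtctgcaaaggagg

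The other tested zinc exporters changed less than Slc30a1. Of 6 tested Slc30a genes 4 fell, 1 rose and 1 did not pass. That is 83.3% called, against 49.1% of all tested genes and 53.6% of those with a mean of at least 10 CPM. Slc30a9, which moves zinc out of mitochondria, took the most counts of the family, with 159.6, 151, 149 and 162 CPM in the YAP5SA libraries and 130.5, 134, 133 and 136 CPM in the controls. It rose 1.16-fold without overlap (adjusted p = 0.00142, edgeR). Slc30a4, the vesicular transporter whose loss in mice leaves milk poor in zinc, had 89.7, 83.8, 77.8 and 83.6 CPM in the YAP5SA libraries and 117, 106, 110.0 and 107 CPM in the controls, and fell 1.32-fold (adjusted p = 1.68e-05, edgeR).

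Of the Golgi transporters, Slc30a7 fell 1.46-fold, with 61.5 ± 1.81 CPM in YAP5SA and 89.8 ± 5.31 CPM in controls (SD, n = 4 each; adjusted p = 4.25e-07, edgeR). Slc30a5 and Slc30a6 encode partners in a complex that loads zinc onto enzymes of the secretory pathway. Slc30a5 had 86.0 ± 2.72 CPM in YAP5SA and 86.4 ± 1.41 CPM in controls, a log2 fold change of −0.01 ± 0.05 SE with a 95% interval from −0.12 to 0.10 (adjusted p = 0.929, edgeR). Slc30a6 had 21.8 ± 1.96 CPM in YAP5SA and 25.5 ± 2.04 CPM in controls and a fall of 1.17-fold (adjusted p = 0.0406, edgeR), a call lost without YAP5SA 1, YAP5SA 3, YAP5SA 4, Control 2 or Control 3 (adjusted p from 0.0561 to 0.130, edgeR). Summed over the family, zinc exporters were at 438 ± 11.2 CPM in YAP5SA and 501 ± 7.71 CPM in controls, 1.14-fold lower in YAP5SA.

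Transporters of specialised cells were nearly absent. Slc30a2, of secretory vesicles, had 0 counts in YAP5SA and 15 over the controls, with 0, 6, 3 and 6 in the control libraries. The groups overlapped, and counts were too few to test. Taking 3 counts over the 4 libraries as the floor for a count of 0 gave a lower bound of 4.91-fold for the difference. That value leaves out the error of the control counts. Slc30a3, of synaptic vesicles, had 1 count in YAP5SA and 7 in controls, Slc30a10, a manganese exporter, 8 in YAP5SA and 16 in controls, and Slc30a8, of insulin granules, 0 in both.

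The zinc importers went both ways. Of 11 tested Slc39a genes 6 fell, 2 rose and 3 did not pass. That is 72.7% called, against 49.1% of all tested genes and 53.6% of those with a mean of at least 10 CPM. Slc39a10, a plasma membrane importer, took the most counts of the family, with 201, 196, 182 and 204 CPM in the YAP5SA libraries and 405, 467, 389.6 and 487 CPM in the controls. Every YAP5SA library was below every control, by 2.23-fold (log2 fold change −1.16 ± 0.07 SE, adjusted p = 1.74e-10, edgeR). Slc39a11 had 37.7, 41.7, 46.3 and 44.2 CPM in the YAP5SA libraries and 90.7, 91.0, 89.6 and 103 CPM in the controls. It fell 2.20-fold without overlap (log2 fold change −1.14 ± 0.07 SE, adjusted p = 2.7e-10, edgeR).

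Slc39a8 and Slc39a13 were the importers that rose. Slc39a8 carries zinc and manganese, and had 103, 101, 92.2 and 119.7 CPM in the YAP5SA libraries and 63.0, 55.3, 60.6 and 58.1 CPM in the controls, a rise of 1.76-fold (adjusted p = 4.61e-08, edgeR). Slc39a13, a transporter of the secretory pathway that bone and connective tissue need, had 18.6, 16.4, 14.7 and 20.1 CPM in the YAP5SA libraries and 7.77, 8.94, 8.20 and 11.6 CPM in the controls. It rose 1.93-fold (log2 fold change 0.95 ± 0.13 SE, adjusted p = 1.01e-05, edgeR). Neither gene's groups overlapped. Psmc3 overlaps 4.4% of the Slc39a13 exon bases on the other strand and held 11449 counts in YAP5SA and 11023 in controls.

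**Figure D4:**
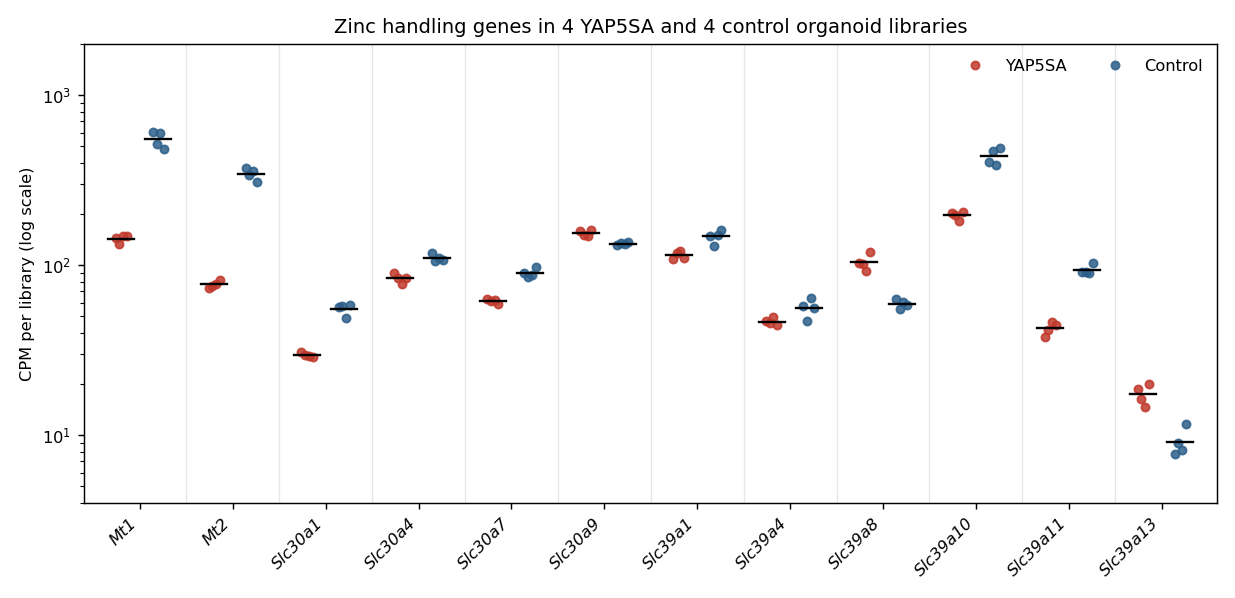
CPM per library (log axis) of 12 zinc handling genes; points are the 4 YAP5SA libraries (left of each pair) and the 4 controls, bars are means. Mt1, Mt2, Slc30a1, Slc39a10 and Slc39a11 are lower in every YAP5SA library, Slc39a8, Slc39a13 and Slc30a9 higher, and the levels of Slc39a4 overlap.

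Slc39a1, a broadly expressed surface importer and the next by counts, not divided by length, had 109, 118, 122 and 109.5 CPM in the YAP5SA libraries and 149, 129.9, 151 and 161 CPM in the controls, and fell 1.29-fold without overlap (adjusted p = 0.000133, edgeR). Slc39a4, the importer of dietary zinc whose loss causes acrodermatitis enteropathica in humans, had 47.2, 45.3, 49.2 and 44.5 CPM in the YAP5SA libraries and 57.5, 46.6, 63.6 and 56.1 CPM in the controls. YAP5SA 3 and YAP5SA 1 lay above the lowest control, and the fall was 1.20-fold (log2 fold change −0.27 ± 0.08 SE, adjusted p = 0.0121, edgeR). Slc39a6, a relative of Slc39a10, and Slc39a7, which releases zinc from the endoplasmic reticulum, fell 1.16-fold and 1.17-fold (adjusted p = 0.0254 and 0.0288, edgeR). Their groups overlapped. The call of Slc39a6 was lost without YAP5SA 2, YAP5SA 4 or Control 3 (adjusted p from 0.0693 to 0.0839, edgeR) and that of Slc39a7 without YAP5SA 1, YAP5SA 2, Control 1 or Control 3 (adjusted p from 0.0571 to 0.0980, edgeR). An unnamed gene model shares 80.7% of the exon bases of Slc39a7, with 29 counts in YAP5SA and 20 in controls.

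The 3 importers that did not pass were Slc39a3, Slc39a9 and Slc39a14. Slc39a14 also takes up iron that is not bound to transferrin, and had 29.4 ± 2.94 CPM in YAP5SA and 33.0 ± 2.35 CPM in controls (SD, n = 4 each). Its log2 fold change was −0.16 ± 0.08 SE, with a 95% interval from −0.34 to 0.02 (adjusted p = 0.123, edgeR), and it passed without YAP5SA 1 (adjusted p = 0.0473, edgeR). The intervals ran from −0.08 to 0.30 for Slc39a3 and from −0.21 to 0.02 for the Golgi transporter Slc39a9. The family summed to 729 ± 13.4 CPM in YAP5SA and 1029 ± 54.8 CPM in controls, 1.41-fold lower in YAP5SA. Slc39a2, Slc39a5 and Slc39a12 had between 1 and 14 counts over the YAP5SA libraries and between 0 and 16 over the controls.

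Divided by exon length, levels of different genes were put in an order that depends on the lengths used. The length is the union of all annotated exons, which can exceed that of the message present. For Fth1 it is 3469 bases, and an annotated transcript in which its hairpin was found has 1494. Which transcript is present was not read from these data. By CPM alone Mt1 was above Mt2 in every library. On the scale of CPM per kb of exon (union of GENCODE M21 exons, an approximation since the authors' annotation is not given), Ftl1 led in both groups, with 1174 ± 37 in YAP5SA and 1349 ± 66 in controls (SD, n = 4 each). In YAP5SA Fth1 (243.4 ± 17.1), Mt2 (131.3 ± 6.4), Mt1 (114.8 ± 5.8) and Tfrc (60.6 ± 6.1) followed. In controls the order was Mt2 (584.9 ± 44.6), Mt1 (442.4 ± 49.8), Fth1 (195.7 ± 9.5) and Tfrc (134.3 ± 12.4). Cybrd1 was number 30 in YAP5SA and number 6 in controls on this scale, Slc40a1 number 29 in YAP5SA and 14 in controls, and Trf number 7 in YAP5SA and 26 in controls.

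The pathways around these genes were read from 6 lists, each against the 49.1% of all tested genes that were called. Copper handling had all of its 11 tested genes called, 6 lower and 5 higher. Atp7b, a pump that moves copper into secreted proteins and out of the cell, had 4.34, 3.20, 3.86 and 2.24 CPM in the YAP5SA libraries and 121, 115, 124 and 137 CPM in the controls, and fell 36.6-fold (log2 fold change −5.20 ± 0.12 SE, adjusted p = 1.44e-15, edgeR). Its relative Atp7a fell 2.93-fold, with 31.3 ± 1.51 CPM in YAP5SA and 91.7 ± 13.8 CPM in controls (SD, n = 4 each). Cp, which encodes the copper-carrying ferroxidase ceruloplasmin, had 13.3, 17.8, 13.1 and 18.6 CPM in the YAP5SA libraries and 1.26, 0.921, 1.58 and 1.80 CPM in the controls, and rose 11.4-fold from a low level (log2 fold change 3.51 ± 0.19 SE, adjusted p = 4.18e-11, edgeR). Sod1, the copper and zinc superoxide dismutase of the cytosol, rose 1.74-fold, with 322 ± 10.9 CPM in YAP5SA and 184 ± 13.4 CPM in controls. The copper importer gene Slc31a1 rose 1.16-fold, with overlapping groups (adjusted p = 0.00478, edgeR). The median log2 fold change of the list was −0.24. Mtf1, whose call depended on single libraries, is among its lower genes.

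Of 16 tested genes of iron chaperones, ferritin turnover and iron sensing, 6 rose, 4 fell and 6 did not pass (62.5% called). Ncoa4, the receptor that delivers ferritin to lysosomes, had 91.0, 77.8, 82.5 and 87.8 CPM in the YAP5SA libraries and 152, 170.3, 158 and 145 CPM in the controls, and fell 1.84-fold without overlap (log2 fold change −0.88 ± 0.06 SE, adjusted p = 1.77e-09, edgeR). Fbxl5, the iron sensor that marks IRP2 for degradation, did not pass, with 126 ± 5.53 CPM in YAP5SA and 135 ± 3.91 CPM in controls (SD, n = 4 each; adjusted p = 0.129, edgeR). Ltf, which encodes the iron-binding secreted protein lactoferrin, rose 2.72-fold, with 111 ± 12.5 CPM in YAP5SA and 40.8 ± 4.98 CPM in controls, and Epas1, the hypoxia factor HIF-2 alpha, rose 2.66-fold, with 27.5 ± 1.61 CPM in YAP5SA and 10.3 ± 1.27 CPM in controls. The called genes of the list include 2 at low levels that each passed the filter on low counts through the group where they are high. Bmp6, the inducer of hepcidin, had 2.13 ± 0.575 CPM in YAP5SA and 0.381 ± 0.208 CPM in controls, and Lcn2, which binds bacterial siderophores, had 0.213 ± 0.116 CPM in YAP5SA and 1.26 ± 0.398 CPM in controls.

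Genes of heme synthesis and of heme breakdown went both ways. In synthesis, 2 of 8 tested genes rose and 2 fell (50% called). Alas1, the first and rate-limiting enzyme, had 32.9, 34.4, 31.3 and 32.5 CPM in the YAP5SA libraries and 69.1, 69.2, 66.2 and 71.0 CPM in the controls, and fell 2.10-fold (log2 fold change −1.07 ± 0.06 SE, adjusted p = 8.47e-11, edgeR). Fech, the last enzyme, which inserts the iron, did not pass, with 57.4 ± 1.97 CPM in YAP5SA and 63.2 ± 2.56 CPM in controls (SD, n = 4 each; adjusted p = 0.06, edgeR), although its groups did not overlap, and it passed without Control 1 (adjusted p = 0.0467, edgeR). Of 9 genes of heme breakdown and transport 5 rose and 2 fell (77.8% called). Slc48a1, which carries heme out of lysosomes, rose 1.97-fold, with 68.1 ± 2.74 CPM in YAP5SA and 34.6 ± 5.17 CPM in controls. Hmox1, the inducible heme oxygenase that frees iron from heme, fell 1.89-fold, with 28.2 ± 2.37 CPM in YAP5SA and 53.3 ± 9.18 CPM in controls (adjusted p = 3.23e-06, edgeR). Iron-sulfur cluster assembly had the smallest called share of these lists, as 13 of its 19 tested genes were not called, 3 rose and 3 fell (31.6% called), with log2 fold changes from −0.56 to 0.48.

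In the short list of zinc sensing and zinc-binding partners, the 3 tested genes were called lower. Besides Mtf1 these were Znrf1, a RING finger ubiquitin ligase gene (1.60-fold), and Tmem163, which encodes a vesicular zinc-binding membrane protein. Tmem163 had 0.0967 ± 0.123 CPM in YAP5SA and 3.19 ± 0.252 CPM in controls (SD, n = 4 each; log2 fold change −5.02 ± 0.48 SE, adjusted p = 9.57e-08, edgeR). Its counts were 2, 0, 4 and 0 in the YAP5SA libraries and 48, 56, 70 and 42 in the controls, so it passed the filter on low counts through the controls, and the log2 fold change was −6.09 without YAP5SA 3.

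**Figure D5:**
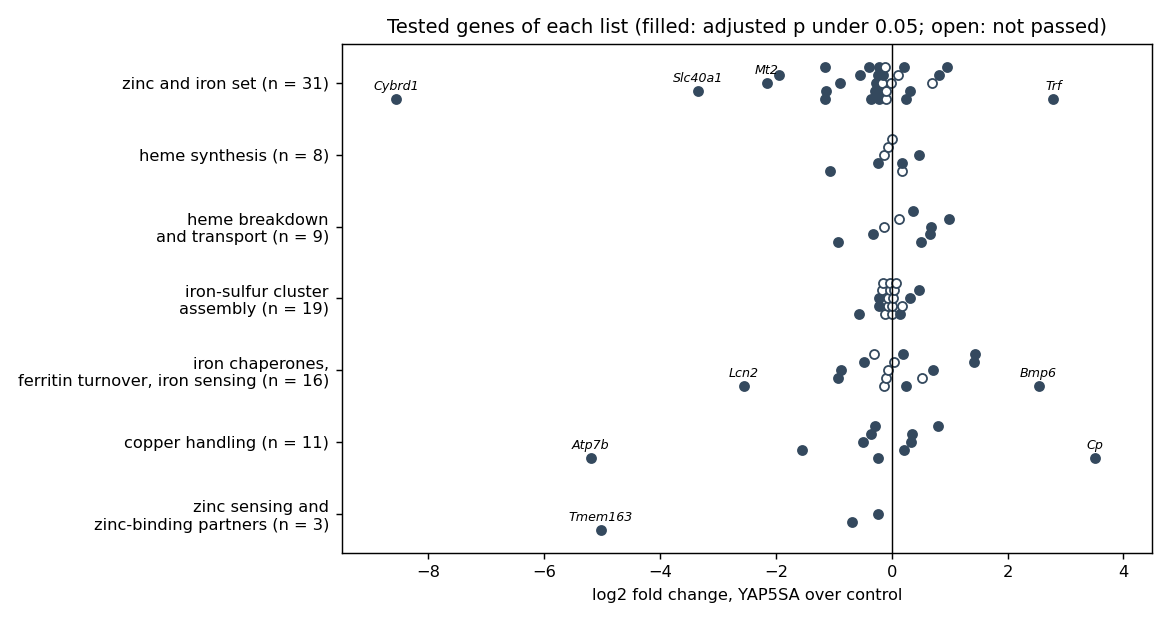
Log2 fold change, YAP5SA over control, of every tested gene in the zinc and iron set and in 6 lists of related pathways; filled points passed at an adjusted p under 0.05, and genes changed at least 4-fold are named. Copper handling spans −5.20 (Atp7b) to 3.51 (Cp), and iron-sulfur cluster assembly stays between −0.56 and 0.48.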

How the data were processed

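Total RNA of the organoids was sequenced in 8 libraries as 150 bp read pairs, per the labels' protocols. The authors deposited raw counts of reads for each gene, with no normalization. The submitters' processing notes name cutadapt, HISAT2 2.0.1, HTSeq 0.6.1 and the build mm9. The annotation, the counting options and whether strand was used are not given, so a read where genes overlap has no certain gene of origin. Exon lengths and sequences come from GRCm38 tables (GENCODE M21 and RefSeq) matched by symbol.

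Of 56691 rows, 2639 without a gene name (0.190% to 0.221% of a library's counts) were left out, and rows sharing a symbol were summed. Genes passing edgeR's filterByExpr (minimum count 10, minimum total 15) were scaled by TMM, and edgeR 4.0.16 under R 4.3.3 gave the tests (quasi-likelihood, robust, genotype as the only term), with Benjamini-Hochberg adjustment over all 14058 tested genes. The SE of a log2 fold change is its size over the root of the F statistic. Libraries of a group differed from each other by more than sampling noise in every pair (chi-square per degree of freedom from 3.59 to 30.1). Intervals and floors cover counting error or library spread only. The test was checked on simulated counts. Alternatives were other scalings, filters, DESeq2 1.42.0, a replicate block and leaving out each library.

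The gene set and lists were chosen with earlier results of these data known. Values of every library are given for genes that define a step, for members changed at least 2-fold, and for the 2 most abundant Slc30a and Slc39a genes. Slc39a8, Slc39a13, Slc48a1, Sod1, Znrf1 and the leading genes of the marker lists were named after their values were seen.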

Additional observations from a re-analysis of the deposited data

Results flagged for a closer look

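In 62 groups of 4 libraries (31 tested genes, each in YAP5SA and in controls), 3 held a library set apart from the other 3 by Dixon's ratio, where chance gives about 3.1 (1 in 20). Control 2 was low for Cybrd1, at 341 CPM, with the other controls from 441 to 455 CPM. YAP5SA 1 was low for Ftl1, at 1500 CPM, with the others from 1589 to 1604 CPM. Control 4 was high for Slc39a11, at 103 CPM, with the others from 89.6 to 91 CPM. None of the 3 genes changed its call without that library.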

How the results depend on the processing

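Counts of called genes in the set stayed within 1.5 times under every alternative run: 5 to 6 higher and 14 to 18 lower, against 6 and 18, with 5377 to 7611 of all tested genes called, against 6899. With an adjusted p under 0.01 there were 5 higher and 14 lower. Scaling by library size alone gave 6 higher and 15 lower and turned the balance over all genes to 3635 higher and 3282 lower, and moved the median of all genes to 0.03. Without each library in turn the set had 5 to 6 higher and 15 to 18 lower calls. Of the 24 called genes 19 passed under all 16 alternatives, and the other 5 (Ireb2, Slc25a37, Slc30a6, Slc39a6 and Slc39a7) were lost under at least 1. Besides the libraries named above, Slc30a6 was lost with scaling by library size or upper quartile, without a filter and in DESeq2 (adjusted p from 0.0546 to 0.0776), Slc39a6 with library size alone and without a filter (0.0511 and 0.0593), and Slc39a7 with library size alone (0.0554). Of related genes, Mtf1 was also lost with library size alone (0.0500), and Fech passed with a filter of 1 CPM in 4 libraries (0.0486). No called gene changed direction. Under the other scalings and without each library, sums of metallothionein, ferritin, zinc exporter and zinc importer levels moved by less than the spread between libraries.

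Replicate numbers are shared by the groups. The deviations of same-numbered libraries had correlations from −0.0793 to 0.0936, and not every library correlated best with its own number. With 4 libraries in each group this cannot tell whether equal numbers mark a shared litter or day, which the labels do not state. With a replicate block the set had 6 higher and 18 lower calls, and 6586 genes were called in all. The 14 untested genes had at most 16 counts over a group of 4 libraries. For them, limited depth and absence of the message cannot be told apart.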
